A study of Mus musculus with 15 samples.

Results

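Abcc9, Kcnj8, Mcam, Pdgfrb, Cspg4, Rgs5 and Aoc3 are marker genes of mural cells, the pericytes and vascular smooth muscle cells that wrap small blood vessels. These 7 genes of the 49315 in the tables were taken as a list of known markers. The list was chosen for lower values of Abcc9 and Mcam. The knockdown in which they were lower is not stated. It was taken to be Lmod1 knockdown against control, so values of the 7 genes in that comparison are a description and carry no p-value. Because Sirt1 knockdown may have been used too, Abcc9 and Mcam carry no p-value there either. They were measured by sequencing of polyadenylated RNA in cultured primary myoblasts, the muscle precursor cells, from wild-type C57BL/6J mice. All cells received small interfering RNA and were then differentiated for 1 day. The groups were siLmod1, which targets Lmod1 (leiomodin 1, an actin filament nucleator), siSirt1, which targets Sirt1 (the deacetylase sirtuin 1), and siCtrl, a control RNA. Each group held 5 libraries, with replicate numbers 1, 2, 3, 4 and 7. The numbers are taken here as the primary lines that the study's design names. The study set each knockdown against siCtrl to find early changes in the myogenic programme. The labels used here give no age or sex of the mice.

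Mural cells are recruited by platelet-derived growth factor B, which endothelial cells release and which binds the receptor encoded by Pdgfrb. Abcc9 encodes a sulfonylurea receptor, the regulatory subunit of ATP-sensitive potassium channels, and Kcnj8 encodes the pore subunit that it pairs with in vascular cells. In skeletal and heart muscle the same receptor joins another pore subunit, encoded by Kcnj11. Mcam (CD146) is a cell adhesion molecule of the immunoglobulin superfamily, found on endothelial and mural cells and on myogenic cells. Cspg4 encodes the NG2 proteoglycan of the cell surface, Rgs5 an inhibitor of G protein signalling and Aoc3 a membrane-bound amine oxidase. Several of these genes are also expressed outside mural cells, so their RNA in a myoblast culture does not by itself say which cells made it.

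The libraries held 27135398 to 31829009 counted reads in siLmod1, 21004908 to 27815744 in siSirt1 and 26097889 to 33601761 in siCtrl. Lmod1 was at 1.39 to 5.28 CPM (counts scaled to the library total) in siLmod1 and at 5.77 to 41.0 CPM in siCtrl. Sirt1 was at 3.37 to 11.4 CPM in siSirt1 and at 16.5 to 34.2 CPM in siCtrl. Each target was lower in 5 of 5 lines and the groups did not overlap. An exact two-sided permutation test that ignored the pairing by line gave p = 0.00794 for each. That is the smallest p that 5 against 5 unpaired libraries can give. Line 4 stood apart. Its 3 libraries lay, on the principal component that took 42.3% of the variance, at 86.2 to 87.3 and the other 12 at -41.1 to 0.882. The siSirt1 library of line 7 lay highest on the second component, at 73.6 against 31.3 for the siCtrl library of that line. All 12 myogenic markers were above 3 reads in all 15 libraries. Their summed level was 10631 to 16627 TPM (counts scaled by transcript length and library), so the cells carried myoblast RNA as labelled. The 12 endothelial markers summed to 2.01 to 7.01 TPM, and Emcn, Robo4 and Sox17 never passed 3 reads.

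Of the 7 mural markers, 2 were measured well in every library, 3 were low and 2 were near 0. Mcam was the highest, with a mean of 25.3 TPM over the 15 libraries and a range of 11.2 to 76.6 TPM. Abcc9 followed with 7.95 TPM (0.348 to 21.7 TPM). Pdgfrb (2.12 TPM), Rgs5 (1.64 TPM) and Cspg4 (1.45 TPM) formed a lower tier whose ranges overlapped widely. Each of these 3 dropped to 2 or 3 reads in at least 1 library. Aoc3 averaged 0.0499 TPM and never passed 6 reads. Kcnj8 averaged 0.0220 TPM and never passed 4 reads. A count of 0 allows up to 3 reads, or 0.0893 to 0.143 CPM depending on the library, and such limits cover counting error only.

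**Figure D1:**
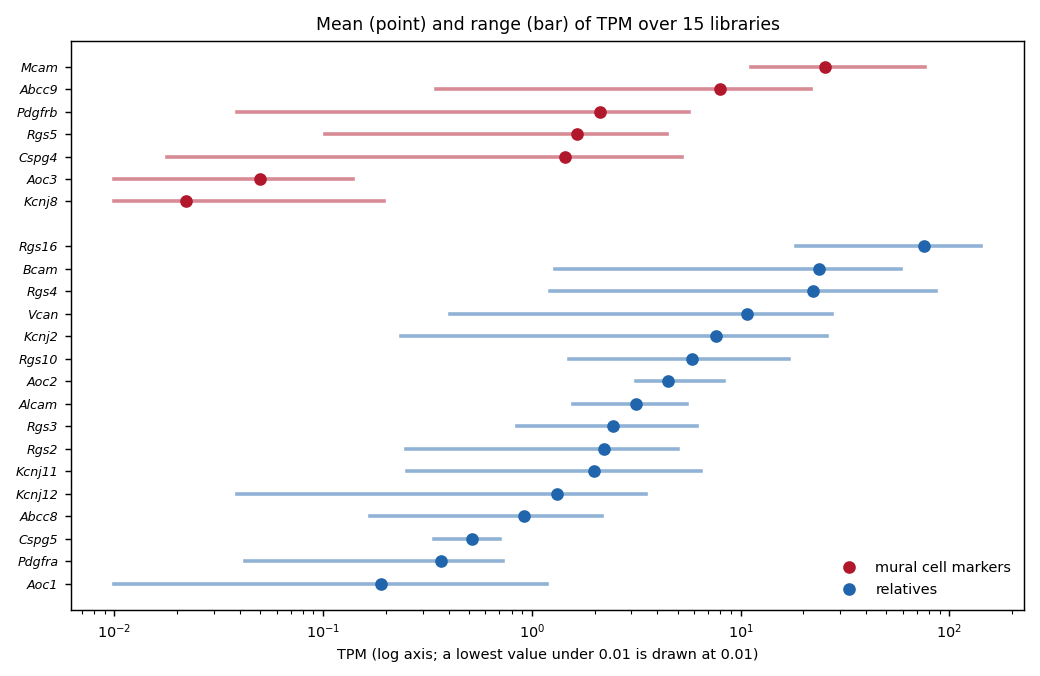
Mean (point) and range (bar) of TPM over all 15 libraries for the 7 mural markers (red) and 16 related genes (blue), on a log axis. Mcam (25.3 TPM) and Abcc9 (7.95 TPM) stand above the other markers, and Kcnj8 (0.0220 TPM) and Aoc3 (0.0499 TPM) lie below the means of all 16 relatives.

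The channel subunits were measured very unequally. Abcc9 had 9078 reads over the 15 libraries and Kcnj8, its vascular partner, had 7. Those 7 reads were 2 in siLmod1 line 7, 4 in siSirt1 line 3 and 1 in siCtrl line 7. Kcnj11, the pore subunit of muscle, was at 1.98 TPM (0.253 to 6.50 TPM) and was above 3 reads in all 15 libraries. Abcc8, the sulfonylurea receptor paralogue of pancreatic beta cells and neurons, was at 0.920 TPM. Abcc9 (ENSMUSG00000030249) lies on chromosome 6 at 142587862 to 142702315 in the mm10 build, on the minus strand. Kcnj8 (ENSMUSG00000030247) lies on the same strand at 142564837 to 142571614. The genes are thus 16247 bases apart with 0 protein-coding genes between them in GENCODE M21, and of the 2 only Abcc9 passed 4 reads in any library.

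The stretches upstream of the RefSeq starts are shown for these neighbours of unequal level and for Mcam, the other gene for whose lower values the list was chosen. RefSeq windows were matched for 5 of the 7 genes. Each sequence is the 250 bases before the start site, 5′ to 3′ on the gene's strand (build GRCm38.p6), with the E-box word CANNTG, the core that MyoD-family factors bind, in capitals. The windows are chr6:142702275-142702524 (minus strand) for Abcc9, chr6:142571615-142571864 (minus strand) for Kcnj8 and chr9:44134408-44134657 (plus strand) for Mcam. The GENCODE M21 spans of Abcc9 and Mcam begin upstream of these RefSeq starts, so the windows of both lie partly within the spans. The E-box word of Abcc9 falls in that overlap.
Abcc9: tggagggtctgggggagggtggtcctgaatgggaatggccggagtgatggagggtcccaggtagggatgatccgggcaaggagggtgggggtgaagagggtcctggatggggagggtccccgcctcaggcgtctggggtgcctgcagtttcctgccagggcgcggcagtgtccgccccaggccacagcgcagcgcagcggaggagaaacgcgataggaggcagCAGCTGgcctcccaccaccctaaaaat
Kcnj8: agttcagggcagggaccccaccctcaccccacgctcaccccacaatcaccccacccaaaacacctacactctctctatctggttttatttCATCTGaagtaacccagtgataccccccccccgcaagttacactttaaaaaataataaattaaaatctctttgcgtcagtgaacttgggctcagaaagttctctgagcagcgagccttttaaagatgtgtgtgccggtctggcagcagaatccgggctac
Mcam: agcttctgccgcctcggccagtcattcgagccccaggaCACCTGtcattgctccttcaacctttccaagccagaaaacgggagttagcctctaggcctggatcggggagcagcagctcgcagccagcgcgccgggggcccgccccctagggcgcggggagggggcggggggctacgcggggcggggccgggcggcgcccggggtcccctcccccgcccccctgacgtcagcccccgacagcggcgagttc

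Each of the 3 windows held 1 E-box word, whose first base lay 27 bases before the start in Abcc9, 160 in Kcnj8 and 212 in Mcam. That word was in 66.2% of 32851 RefSeq windows of this length, on either strand, so its presence does not set these genes apart. In Abcc9 it read CAGCTG, a form of the same word found in 13.0% of windows. The Abcc9 window also held TGGGAA, the core of the Notch effector RBPJ, which was in 21.6% of windows. The GC box GGGCGG occurred 5 times in Mcam, 1 time in Abcc9 and 0 times in Kcnj8 (32.7% of windows hold it). The windows of Cspg4 and Rgs5 held 0 E-box words. The CArG box, the site of serum response factor, was in none of the 5 windows and in 1.47% of all. GC content was 73.6% in Mcam and 66.8% in Abcc9, against 49.2% in Kcnj8 and a median of 52.4%. These matches describe letters and say nothing of binding.

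Abcc9 had 26.6, 10.4, 27.6, 1.39 and 8.70 CPM in siLmod1 lines 1, 2, 3, 4 and 7. In siSirt1 the same lines had 21.2, 14.1, 34.9, 0.926 and 6.47 CPM. In siCtrl they had 57.8, 21.5, 54.8, 3.53 and 21.3 CPM. The groups overlapped, because lines 1 and 3 were high and line 4 was low under every treatment, yet each line was lower under each knockdown than under siCtrl. In siLmod1 the level was 39.4% to 50.4% of the siCtrl level of the same line, a narrow band across lines that differed many-fold in level. In siSirt1 it was 26.3% to 65.4%, with lines 1, 4 and 7 at 36.7%, 26.3% and 30.3% and lines 2 and 3 at 65.4% and 63.7%. In order of level, siLmod1 averaged 14.9 ± 11.6 CPM, siSirt1 15.5 ± 13.3 CPM and siCtrl 31.8 ± 23.6 CPM (SD, n = 5 each), and neighbours in this order lay within their SDs. In such bulk samples, fewer cells of a type and less RNA per cell cannot be told apart.

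Mcam (ENSMUSG00000032135, mm10 chromosome 9, 44134469 to 44142727, plus strand) had 21.5, 13.7, 14.5, 12.2 and 37.1 CPM in siLmod1 lines 1, 2, 3, 4 and 7. In siSirt1 it had 26.6, 15.4, 15.7, 26.0 and 40.1 CPM. In siCtrl it had 33.2, 16.8, 15.2, 30.0 and 78.7 CPM. The difference was uneven: siLmod1 was at 40.8% of siCtrl in line 4 and 47.1% in line 7, but at 81.6% in line 2 and 94.8% in line 3. Line 1 lay between them, at 64.9%. In siSirt1 line 7 stood at 51.0% of its control, and lines 1, 2, 3 and 4 were at 80.1%, 91.8%, 103% and 86.8%. Means were 19.8 ± 10.3 CPM in siLmod1, 24.8 ± 10.1 in siSirt1 and 34.8 ± 25.8 in siCtrl (SD, n = 5 each), again with neighbours within their SDs. The libraries keep no strand, and exons of Mcam overlap Gm10687 on the opposite strand, which had 312 reads in all against 11227 for Mcam. Those of Abcc9 overlap 5330439B14Rik, which had 25.

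**Figure D2:**
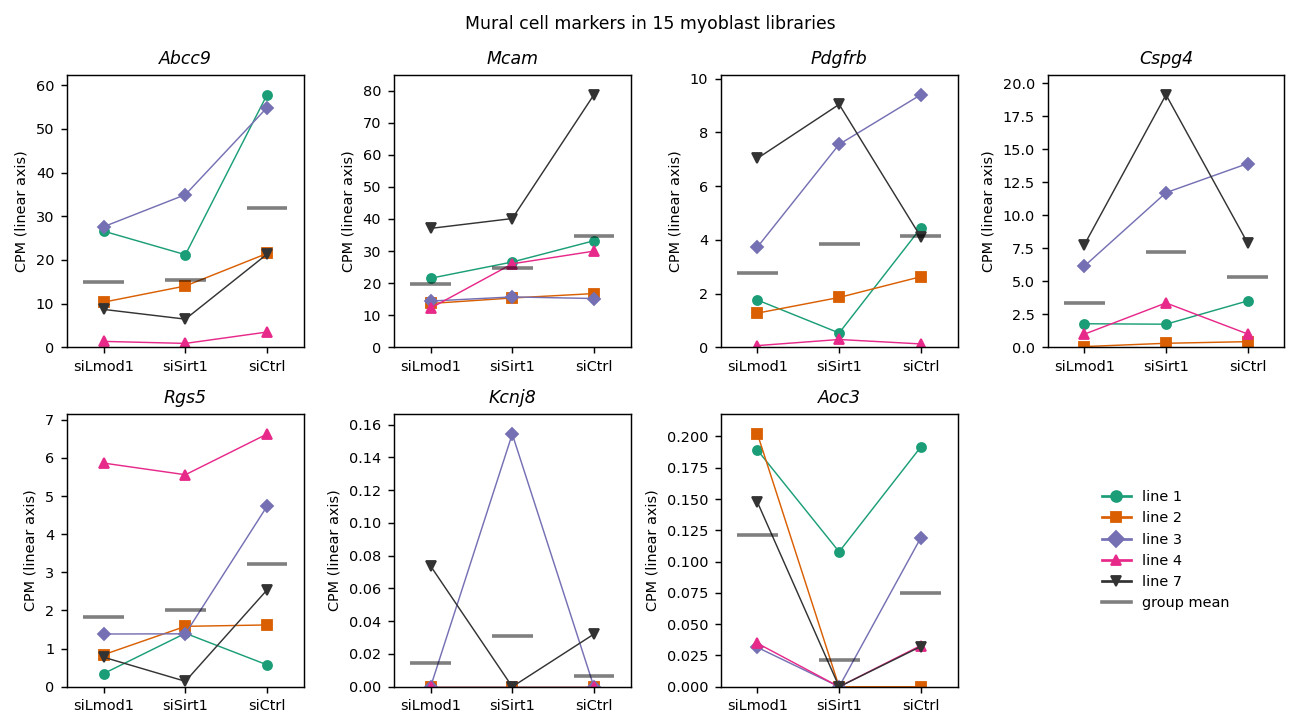
CPM of each marker in the 15 libraries on linear axes from 0, with libraries of the same primary line joined and the group mean as a grey bar. Abcc9 is lower in both knockdowns than in siCtrl in all 5 lines, while Kcnj8 stays at or under 4 reads, or 0.154 CPM.

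Pdgfrb, Cspg4 and Rgs5 were low and varied widely between the libraries of a group. Pdgfrb had 1.76, 1.28, 3.74, 0.0694 and 7.04 CPM in siLmod1 lines 1, 2, 3, 4 and 7. It had 0.539, 1.86, 7.56, 0.296 and 9.05 CPM in siSirt1, and 4.44, 2.63, 9.40, 0.132 and 4.11 CPM in siCtrl. Line 7 differed in direction from lines 1, 2 and 3: it was at 171% of siCtrl in siLmod1 and at 220% in siSirt1. Line 4 had 2, 8 and 4 reads in siLmod1, siSirt1 and siCtrl, too few to order.

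Cspg4 had 1.80, 0.0673, 6.16, 1.01 and 7.78 CPM in siLmod1 lines 1, 2, 3, 4 and 7. It had 1.76, 0.317, 11.7, 3.37 and 19.1 CPM in siSirt1, and 3.53, 0.439, 13.9, 1.02 and 7.91 CPM in siCtrl. Under siLmod1 it was at 44.2% to 50.9% of siCtrl in lines 1 and 3 and at 98.3% to 98.5% in lines 4 and 7, so the lines split. Line 2 had 2 reads in siLmod1 and 13 in siCtrl. Under siSirt1 lines 4 and 7 were at 330% and 242% of siCtrl and lines 1, 2 and 3 at 50.0%, 72.2% and 84.2%.

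Rgs5 had 0.347, 0.841, 1.38, 5.86 and 0.774 CPM in siLmod1 lines 1, 2, 3, 4 and 7. It had 1.40, 1.58, 1.39, 5.56 and 0.143 CPM in siSirt1, and 0.575, 1.62, 4.73, 6.62 and 2.54 CPM in siCtrl. Line 4 had the most Rgs5 in each group, although it had the least Abcc9 and the least Pdgfrb in each. Against the same line in siCtrl, siLmod1 was at 29.2% to 88.5% (lower in 5 of 5 lines) and siSirt1 at 5.62% to 244% (lower in 4 of 5). The 5.62% came from line 7, with 3 reads in siSirt1 and 79 in siCtrl. The 244% came from line 1, with 39 reads in siSirt1 and 15 in siCtrl, where siLmod1 had 11. Aoc3 had 18 reads in all in siLmod1, 3 in siSirt1 and 11 in siCtrl, and no fold is given for it or for Kcnj8.

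**Figure D3:**
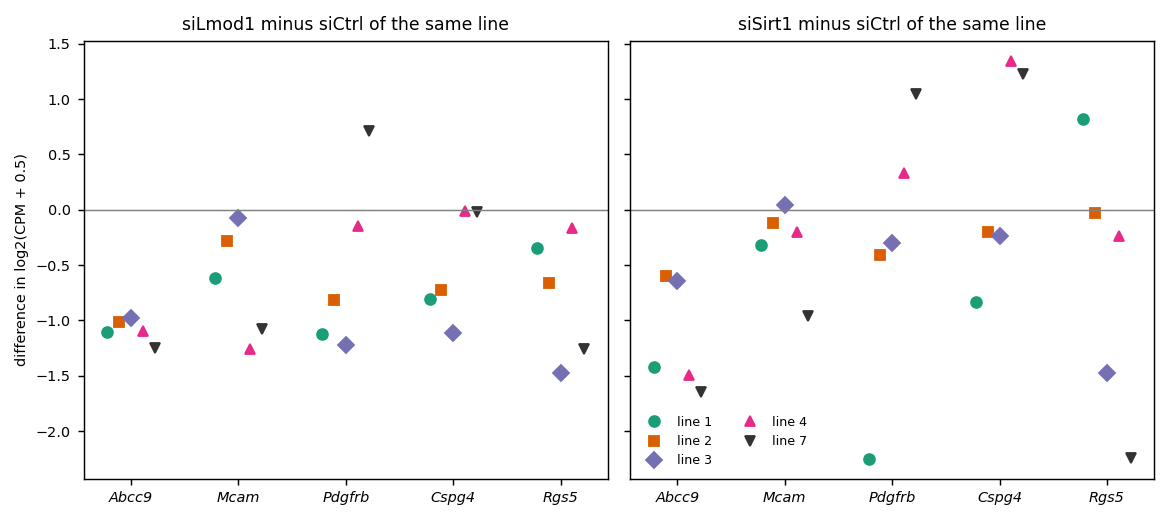
Difference in log2(CPM + 0.5) between each knockdown library and the siCtrl library of the same line, for the 5 markers that passed the filter on low counts. Abcc9 lies below 0 in 5 of 5 lines in both panels, within -1.25 to -0.98 in siLmod1. Mcam, Pdgfrb, Cspg4 and Rgs5 lie on both sides of 0 in siSirt1, Mcam and Rgs5 above it in 1 line each.

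The fits were made with edgeR over all genes that passed a filter on low counts, without and with the line number as a block. Kcnj8 and Aoc3 did not pass that filter. For siLmod1 against siCtrl, the comparison taken as the one the list was chosen on, the log2 fold changes without and with the block were -1.13 and -1.18 for Abcc9, -0.87 and -0.74 for Mcam, and -0.87 and -1.09 for Rgs5. They were -0.69 and -0.72 for Cspg4 and -0.58 and -0.74 for Pdgfrb. With the group alone, 0 of these 5 were called at an adjusted p under 0.05, beside 0.113% of 15022 genes called lower and 0% called higher. With the block 4 of 5 were called lower, Pdgfrb being the exception, beside 16.5% of genes called lower and 12.9% called higher. Abcc9 and Mcam, for whose lower values the list was chosen, are among these 5 genes, so nothing is read from the counts. The count was 3 when line 1, 2 or 3 was left out, 4 without line 4 and 5 without line 7. Blocked values ranged over those omissions from -1.23 to -1.14 for Abcc9 and from -0.89 to -0.58 for Mcam, the smallest gap for Mcam being without line 4.

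Sirt1 knockdown is set against the same siCtrl libraries, so its values are not independent of the comparison above, and the lower values of Abcc9 and Mcam in it may also have served to choose the list. For these genes it is therefore a description. Abcc9 was lower in siSirt1 in 5 of 5 lines, with a log2 fold change of -1.10 (SE 0.85) with the group alone and -1.31 (SE 0.23) with the line as a block. Over 22 alternative fits it stayed between -1.64 and -0.80. The siSirt1 library of line 1 is the one whose match to its own line was least clear, and without that line the blocked value was -1.26. Mcam was lower in siSirt1 in 4 of 5 lines, with a log2 fold change of -0.63 (SE 0.45) without the block and -0.43 (SE 0.16) with it. Without line 7 the blocked value for Mcam was -0.25.

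Rgs5, Pdgfrb and Cspg4 did not pass in siSirt1 under either fit. For Rgs5 the blocked value was -0.87 (SE 0.61, edgeR adjusted p = 0.41), for Pdgfrb -0.46 (SE 0.55, edgeR adjusted p = 0.64) and for Cspg4 0.21 (SE 0.39, edgeR adjusted p = 0.78). These misses do not show equal levels, since the blocked SEs of these 3 low genes exceeded that of Abcc9. With the group alone 0 of the 5 were called, beside 0.114% of 14912 genes called lower and 0.0134% called higher. With the block 1 of 5 was called, Abcc9, beside 4.35% of genes called lower and 2.72% called higher, and nothing is read from that call.

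Set directly against each other, the knockdowns gave values of Mcam, Cspg4 and Pdgfrb that were higher in siSirt1 in most lines, and no common direction for Abcc9. These values involve the siLmod1 libraries taken as used to choose the list and are a description. Abcc9 was higher in siSirt1 than in siLmod1 in 2 of 5 lines and lower in 3, with log2 fold changes of 0.01 without and -0.14 with the block. Mcam was higher in siSirt1 than in siLmod1 in 5 of 5 lines, at 108% to 213% of the siLmod1 level of the same line, with log2 fold changes of 0.22 and 0.28. With the group alone and without siSirt1 line 7, whose siLmod1 library was kept, the value for Mcam was -0.0013. With the block the Mcam value was 0.37 without line 7, and 0.12 to 0.37 over the omissions of single lines. Cspg4 was higher in siSirt1 in 4 of 5 lines, with log2 fold changes of 1.01 and 0.98. Line 2, counted among them, had 8 reads in siSirt1 and 2 in siLmod1, too few to order. Pdgfrb was higher in siSirt1 in 4 of 5 lines as well, at 0.38 and 0.24. Those lines include line 4, which had 8 reads in siSirt1 and 2 in siLmod1, again too few to order. Rgs5 stood at 0.05 and 0.17. None of the 5 was called in either fit, beside 1.53% of 14998 genes called without and 15.9% called with the block.

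Levels also differed between the primary lines, which were not part of how the list was chosen. In an edgeR fit of all 15 libraries with group and line, all 5 tested markers differed between lines, beside 62.3% of 15716 genes. The Benjamini-Hochberg adjusted p from edgeR was 8.2e-07 for Abcc9, 1.2e-05 for Cspg4, 0.00012 for Mcam, 0.0003 for Pdgfrb and 0.0045 for Rgs5. The line means of log2(CPM + 0.5) spanned 4.10 for Abcc9, 3.87 for Cspg4, 3.40 for Pdgfrb, 2.44 for Rgs5 and 1.66 for Mcam. Over all tested genes the median span was 0.71 and the 90th percentile 2.06. Without line 4 the difference in Rgs5 did not pass (edgeR adjusted p = 0.29), while the other 4 passed whichever line was left out.

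The markers did not rank the lines alike. Abcc9 averaged 39.1 ± 14.1 CPM in line 3 and 1.95 ± 1.39 CPM in line 4 (SD over its 3 libraries). Line 1 (35.2 ± 19.75 CPM) was within the spread of line 3. Pdgfrb too was highest in line 3 (6.90 ± 2.89 CPM), within the spread of line 7 (6.73 ± 2.48 CPM), and lowest in line 4 (0.166 ± 0.117 CPM). Rgs5 was highest in line 4, at 6.01 ± 0.549 CPM, and lowest in line 1, at 0.775 ± 0.555 CPM. For Rgs5, line 1 did not differ from line 7 (1.15 ± 1.24 CPM) or line 2 (1.35 ± 0.44 CPM) beyond the spread. Mcam was highest in line 7 (52.0 ± 23.2 CPM) and lowest in line 3 (15.1 ± 0.646 CPM), which did not differ from line 2 (15.3 ± 1.54 CPM) beyond the spread. Cspg4 was highest in line 7 (11.6 ± 6.52 CPM), within the spread of line 3 (10.6 ± 4.00 CPM), and lowest in line 2 (0.274 ± 0.189 CPM).

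**Figure D4:**
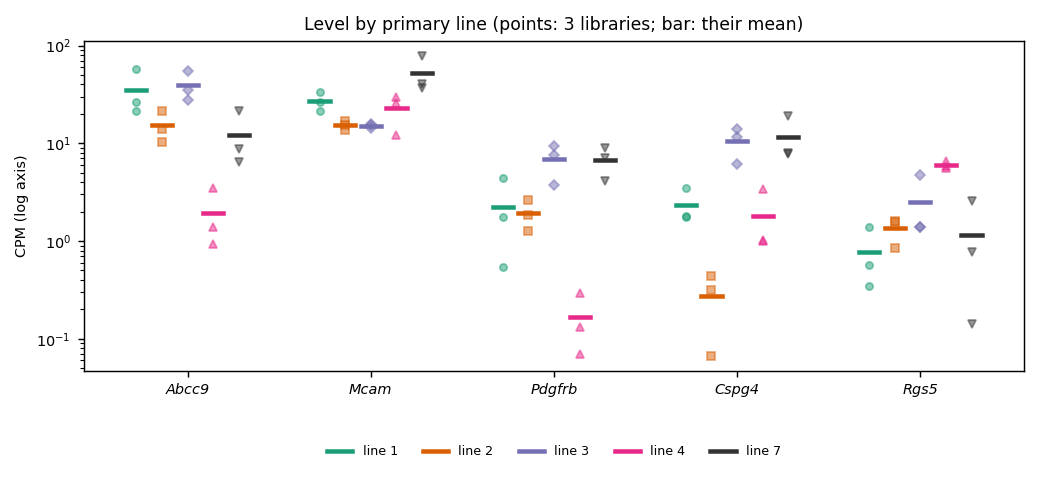
CPM on a log axis by primary line, with 1 point for each of the 3 libraries of a line (siLmod1, siSirt1 and siCtrl) and a bar at their mean. Line 4 is lowest for Abcc9 (1.95 CPM) and Pdgfrb (0.166 CPM) and highest for Rgs5 (6.01 CPM).

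The genes whose levels followed each marker most closely were sought among 10009 genes whose mean reached 5 CPM, by Pearson's r of log2(CPM + 0.5) over the 15 libraries after the mean of each line was removed. These libraries share lines and treatments, so r is given as a description. Abcc9 was most like Ank1 (r = 0.986), Klhl30 (0.973) and Pdlim7 (0.957). Ank1 averaged 252 CPM in siLmod1, 256 CPM in siSirt1 and 329 CPM in siCtrl. Mcam was most like Psmd3 (0.929), Mast2 (0.873) and Tns1 (0.868), and Pdgfrb like Dnm1 (0.859), Egfr (0.839) and Col6a2 (0.839). Cspg4 was most like Mgat3 (0.963), Zfp984 (0.935) and Adamts10 (0.935), and Rgs5 like Lypd6 (0.899), Prkag3 (0.884) and Shisal1 (0.882).

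Other pericyte markers had fitted medians on either side of 0 in the knockdowns. Of 23 such genes, 7 averaged 1 CPM or more, and Higd1b, Slc6a20a and Steap4 never passed 3 reads. Higd1b is a marker of pericytes in several organs. In siLmod1 3 of 13 tested were called lower with the block and 0 higher, with a median log2 fold change of -0.38 beside -0.01 over all genes. Of all genes 16.5% were called lower and 12.9% higher in that fit. They were Notch3, a Notch receptor needed by arterial mural cells, at -1.04 (edgeR adjusted p = 0.0012), Heyl, a Notch target, at -1.06 (edgeR adjusted p = 0.0075) and the transcription factor Tbx18 at -0.38 (edgeR adjusted p = 0.0045). Notch3 and Tbx18 were lower in 5 of 5 lines and Heyl in 4, and the call of Heyl was lost without line 3. In siSirt1 1 of 12 was called lower and 0 higher, with a median of 0.30 beside 0.01, where 4.35% of all genes were called lower and 2.72% higher. That gene was Tbx18, at -0.90 (edgeR adjusted p = 0.012), lower in 5 of 5 lines, while Notch3 was at 0.29 and Heyl at 0.24. Art3 (-0.75), Ednra (0.85) and Vtn (-1.14) had the next smallest p and did not pass.

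Smooth muscle contractile genes had fitted log2 fold changes below 0 for 14 of 14 tested genes in siLmod1 and 13 of 14 in siSirt1, of 17 listed. Some of these lay within their SE of 0, such as Myh11 at -0.09 (SE 0.43) with the block in siLmod1. In siLmod1 5 were called lower and 0 higher with the block (median -0.21, beside -0.01 over all genes, of which 16.5% were called lower and 12.9% higher), led by the myosin light chain Myl9 at -1.57 (edgeR adjusted p = 6.9e-05) and the actin-binding Tagln at -0.66 (edgeR adjusted p = 0.00066). The others were Casq2, Itga8 and Smtn, and the call of Itga8 was lost without line 1, 2 or 3 and that of Smtn without line 1, 2 or 7. In siSirt1 3 were called lower and 0 higher (median -0.54, beside 0.01 over all genes, of which 4.35% were called lower and 2.72% higher): Myl9 at -1.33 (edgeR adjusted p = 0.0024), the smooth muscle actin Acta2 at -0.82 (edgeR adjusted p = 0.016) and Tagln at -0.91 (edgeR adjusted p = 0.040). Without line 1 or line 4 Acta2 did not pass, and Tagln passed only without line 3. Differentiating myoblasts also express several of these genes. Acta2 averaged 7356 TPM in siLmod1, while Myh11, the smooth muscle myosin, was at 0.192 TPM there. None of these genes, or of the lists that follow, was called with the group alone.

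**Figure D5:**
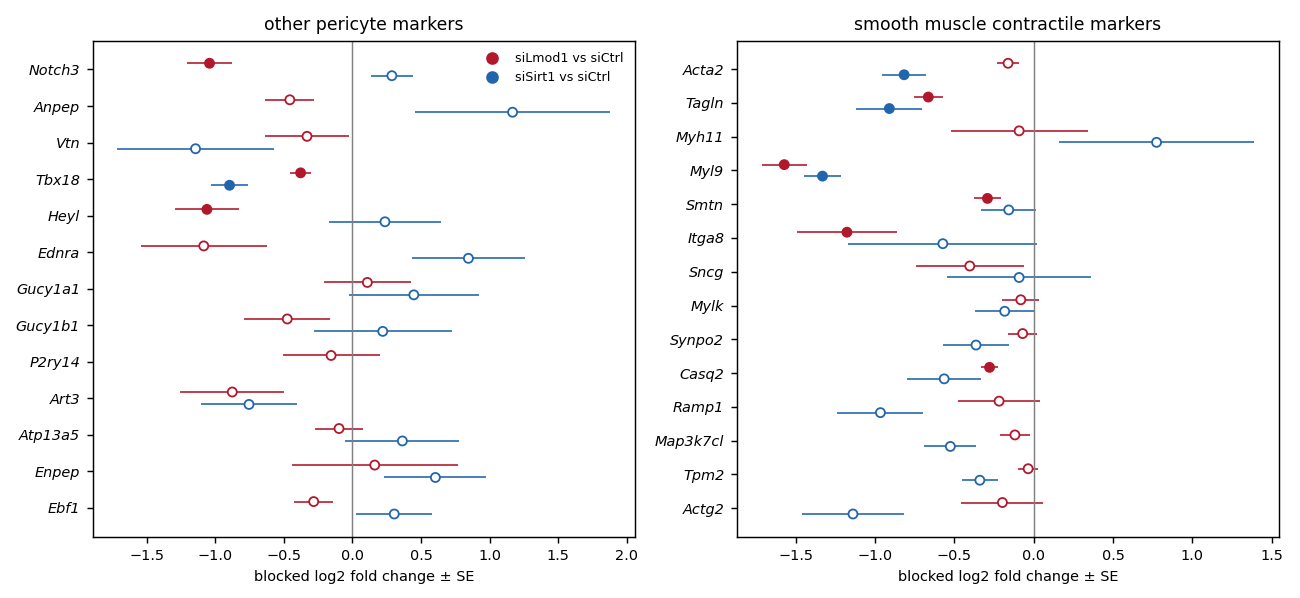
Blocked log2 fold change with its SE for the tested pericyte markers (left) and smooth muscle contractile genes (right), siLmod1 in red and siSirt1 in blue; filled points passed an adjusted p under 0.05. Myl9 and Tagln are filled for both knockdowns and Tbx18 is the pericyte marker that is filled for both, while Notch3 (-1.04) and Heyl (-1.06) are filled for siLmod1.

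Signals that recruit mural cells were measured for all 11 genes listed. In siLmod1 3 were called lower and 0 higher with the block, beside 16.5% and 12.9% of all genes, with a median of -0.17: the Notch ligand Jag1 at -0.78 (edgeR adjusted p = 0.0026), Pdgfb, the ligand of the Pdgfrb receptor, at -0.59 (edgeR adjusted p = 0.015) and the sphingosine kinase Sphk1 at -0.50 (edgeR adjusted p = 0.039). The call of Pdgfb was lost without line 3 and that of Sphk1 without line 1, 2, 3 or 7. In siSirt1 1 was called higher and 0 lower, beside 2.72% and 4.35% of all genes, with a median of -0.02: Angpt1, an angiopoietin that mural cells release, at 0.92 (edgeR adjusted p = 0.018), a call lost without line 1, 2 or 7. Pdgfb was at -0.88 there and did not pass (edgeR adjusted p = 0.061).

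Some relatives of the low markers, such as Rgs16 and Aoc2, had higher levels than the marker itself, and others had lower levels. Pdgfra averaged 0.367 TPM against 2.12 TPM for Pdgfrb, and Cspg5 0.517 TPM against 1.45 TPM for Cspg4. In siLmod1 6 of 15 relatives tested were called lower and 1 higher with the block (median -0.10), beside 16.5% and 12.9% of all genes. Bcam, an adhesion molecule related to Mcam, was at -0.74 (edgeR adjusted p = 0.00028) and the proteoglycan Vcan at -1.04 (edgeR adjusted p = 0.00049). Rgs16 was at -0.71 (edgeR adjusted p = 8.7e-05), and Rgs3, Rgs10 and the channel subunit Kcnj12 were also lower. Rgs16 averaged 75.5 TPM over the 15 libraries, against 1.64 TPM for Rgs5, and the amine oxidase Aoc2 averaged 4.51 TPM, against 0.0499 TPM for Aoc3. Abcc8, in contrast to Abcc9, was higher, at 0.72 (edgeR adjusted p = 0.023), a call lost without line 1 or 7. The call of Kcnj12 was lost without line 1, 2, 3 or 7. Kcnj11 stood at 0.35 in siLmod1 and -0.40 in siSirt1 and was called in neither. In siSirt1 0 of 15 relatives were called (median 0.06), beside 4.35% of all genes lower and 2.72% higher, and Rgs16 stood at 0.62 (edgeR adjusted p = 0.078).

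Markers of other cell types were measured beside the mural lists, and their part in the values above was not tested. The counts called with the block in these lists stand beside 16.5% of all genes lower and 12.9% higher in siLmod1, and 4.35% lower and 2.72% higher in siSirt1. The fibro-adipogenic list summed to 29.6 to 100 TPM in siLmod1, 38.5 to 280 TPM in siSirt1 and 39.1 to 176 TPM in siCtrl, with Dpt and Lum never above 3 reads. Most of that sum was Col3a1, which averaged 110 TPM over the 15 libraries. The next highest gene of the list, Ly6a, averaged 2.97 TPM, and Pdgfra averaged 0.367 TPM. Of 6 tested, 2 were called lower in siLmod1 (median -0.53) and 1 higher in siSirt1 (median 0.31). In siLmod1 Col3a1 was at -0.95 (edgeR adjusted p = 0.00013) and Col1a1 at -2.48 (edgeR adjusted p = 0.020, lost without line 1, 2 or 3), and in siSirt1 Dcn was at 1.85 (edgeR adjusted p = 0.028, lost without line 1, 2 or 3). Endothelial markers had 1 of 3 tested called higher in siLmod1, Vwf at 0.41 (edgeR adjusted p = 0.012, lost without line 3), and 0 in siSirt1 (medians -0.10 and -0.03). The leukocyte list summed to 3.36 to 8.54 TPM over all libraries, with Ptprc and Cd52 never above 3 reads. Of 2 tested, Laptm5 was called lower in siLmod1, at -1.45 (edgeR adjusted p = 0.0075), and 0 in siSirt1 (medians -0.56 and 0.02). Of 4 Schwann cell markers tested, Erbb3 was called lower in siLmod1, at -0.22 (edgeR adjusted p = 0.048, lost without line 1, 2, 3 or 7), and 0 in siSirt1 (medians -0.21 and -0.12). Myogenic markers had 5 of 12 called lower in siLmod1 (median -0.12), among them Myog at -0.50 (edgeR adjusted p = 0.00017) and Pax7 at -0.79 (edgeR adjusted p = 0.00018). In siSirt1 they had 2 called lower (median -0.34), Itga7 at -0.88 (edgeR adjusted p = 0.018) and Mymk at -0.54 (edgeR adjusted p = 0.032), calls that were lost without line 3 for Itga7 and whichever line was left out for Mymk.

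The remaining positions, in mm10, are chromosome 9, 56865033 to 56899870 (plus strand) for Cspg4 (ENSMUSG00000032911), chromosome 1, 169655501 to 169695813 (plus strand) for Rgs5 (ENSMUSG00000026678) and chromosome 11, 101330605 to 101341938 (plus strand) for Aoc3 (ENSMUSG00000019326). Pdgfrb (ENSMUSG00000024620) lies on chromosome 18, 61045150 to 61085061 (plus strand). All values count reads over the exons of the whole gene, so splice forms of Abcc9 or Mcam were not told apart.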

How the data were processed

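Polyadenylated RNA of 15 libraries was sequenced after TruSeq v2 preparation, a protocol without strand information, per the labels' protocols. The authors deposited raw counts per Ensembl gene and TPM values, and their processing notes name DESeq2 and mm10. Aligner, counter and annotation were not given in the sources used here. The 15 libraries held identical counts in the tables they shared. The deposited normalized counts were not used. Positions are from GENCODE M21, and promoter windows are from RefSeq (GRCm38.p6). Of 49315 gene IDs, 48970 had a symbol.

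Members and gene lists were chosen with earlier results of these data known. The comparison behind the choice is not stated, so siSirt1 p-values of Abcc9 and Mcam are not given. Counts were analysed in R 4.3.3 with edgeR 4.0.16 (filterByExpr, TMM, quasi-likelihood F test on the 2 groups compared, Benjamini-Hochberg adjustment over all tested genes, called under 0.05). Other steps used Python 3.11.15, numpy 2.4.6, pandas 2.3.3, scipy 1.17.1 and matplotlib 3.10.9. Residual degrees of freedom were 8 without and 4 with the line as a block. The SE of an edgeR log2 fold change was derived as its absolute value over the square root of the F statistic. TPM served only to compare levels between genes, with no test. CPM are counts over the library total, and 0.5 was added before log2. Alternatives were the block, all 15 libraries in 1 fit, DESeq2 size factors, no filter, DESeq2 1.42.0, and each library or line left out. The edgeR fits were tested on simulated counts.

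The replicate numbers were taken to pair the samples, since the study's design names 5 primary lines. The sample titles give the numbers only as replicates. With group means removed, same-numbered libraries correlated at 0.317 to 0.927 (15 pairs, lowest for siSirt1 and siCtrl of line 1) and others at -0.562 to 0.284 (60 pairs). The p-values with the group alone cover the spread between these 5 lines. With the block they cover how the knockdown difference varied over the lines. Those of the comparison between lines rest on the spread within lines that the group did not account for. Named genes were the 7 members, the targets, up to 4 genes with the smallest blocked p in each of 9 lists and comparison, and the 3 genes most like each member. Other called list genes are named as members of counts of 6 or fewer, chosen after their values were seen.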

Additional observations from a re-analysis of the deposited data

Results flagged for a closer look

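Of 15 sets of 5 libraries tested for a value far from the others (5 markers in 3 groups), 3 held one. The groups share the same 5 lines, and Rgs5 in line 4 was flagged in both knockdowns. The sets are thus not independent, and no chance rate is set beside the count. Mcam in the siCtrl library of line 7, at 78.7 CPM, lay above the next highest, 33.2 CPM, by 71.7% of the range of its group. The 2 knockdown libraries of line 7 were also the highest of their groups, at 37.1 and 40.1 CPM. Without that siCtrl library the siLmod1 log2 fold change of Mcam moved to -0.29 with the group alone, against -0.87 with it.

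Rgs5 in line 4 stood above the other lines in siLmod1, at 5.86 CPM, where the next was 1.38 CPM. It did so in siSirt1 too, at 5.56 CPM, where the next was 1.58 CPM. In siCtrl the line 4 value of 6.62 CPM was the highest as well but was followed by 4.73 CPM, and it was not far enough away to be set apart.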

How the results depend on the processing

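The knockdown of each target kept its direction and its side of the threshold under TMM-scaled CPM and without any 1 library (log2 difference -3.24 to -2.50 for Lmod1, -2.19 to -1.79 for Sirt1). The replicate block changed most counts. For siLmod1 against siCtrl, 17 genes were called with the group alone, 4430 with the block, 38 and 1427 with all 15 libraries in 1 fit without and with it, 6 with no filter, 261 with DESeq2 and 3975 with DESeq2 and the block. Without single libraries 3 to 10 were called, and with the block 2833, 3758, 3534, 4264 and 3314 without lines 1, 2, 3, 4 and 7. Of the markers 0 were called with the group alone, 4 with the block, 2 with all 15 libraries and the block, 5 with DESeq2 and the block, and 3, 3, 3, 4 and 5 with the block without lines 1, 2, 3, 4 and 7. For siSirt1 against siCtrl the gene counts in the same order were 19, 1054, 150, 2530, 7, 294 and 1940, then 3 to 13 without single libraries and 332, 411, 398, 525 and 580 with the block without each line. The blocked count thus fell by more than 1.5 times whichever line was left out. The marker called in the 3 fits with the block was 1, Abcc9, and 0 without line 1, counts from which nothing is read. For siSirt1 against siLmod1 the gene counts were 229, 2379, 554, 4210, 90, 922 and 3171, then 54 to 247 without single libraries and 1042, 1771, 946, 1395 and 1662 with the block without each line. Of the markers 0 were called there except 1 each with all 15 libraries and the block, with DESeq2 and the block, and with the block without line 1. DESeq2 size factors in edgeR left these counts within 1.5 times. Between lines 6877 to 10212 genes and 4 to 5 markers were called without single libraries or lines.

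The direction of siSirt1 against siCtrl turned for 2 markers, neither of which passed the threshold in any fit. Pdgfrb ranged from -0.76 to 0.32 without single libraries, turning to 0.09 without siSirt1 line 1, 0.10 without siSirt1 line 4 and 0.32 without siCtrl line 3, and to 0.11 with the block without line 1. Cspg4 ranged from -0.42 to 1.03, turning without siSirt1 line 7, and with the block to -0.12 without line 4 and -0.084 without line 7. The cause was not tested. Depth limits Kcnj8 and Aoc3 in every library, and Pdgfrb in line 4 and Cspg4 in line 2, where 2 reads were counted in siLmod1. It also limits Rgs5 in the siSirt1 library of line 7, where 3 reads were counted.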
